A study of Schizosaccharomyces pombe with 12 samples.

Results

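Autophagy carries parts of a cell's own cytoplasm to the vacuole, the yeast counterpart of the lysosome, for breakdown. A kinase complex built on Atg1 starts the process, Atg9, Atg2 and the Atg18 family supply lipid to a growing membrane, a phosphatidylinositol 3-kinase complex marks that membrane, and the ubiquitin-like proteins Atg8 and Atg12 are conjugated on it until it closes and fuses with the vacuole. In fission yeast the pathway is best known for its induction by nitrogen starvation, the same signal that leads cells to mate and sporulate. A parallel set of sorting proteins, among them the receptor Vps10 and the adaptor, tethering and ESCRT complexes, brings newly made hydrolases and membrane proteins to the same vacuole.

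The transcripts of 50 such genes were followed in Schizosaccharomyces pombe, out of 5160 genes in the deposited tables. They are the genes whose gene ontology process column names protein targeting to the vacuole (16 genes), autophagy (32), macroautophagy (27), autophagosome assembly (18) or piecemeal microautophagy of the nucleus (7). Of 62 genes with such a term, 6 that also carry the endocytosis term, 5 that also carry the term for transport between endoplasmic reticulum and Golgi, and 1 taken out by its symbol were not included. The rule itself used no measured value, but it was set with earlier results of these data known. Among the 50, 24 carry only 1 of the terms, 8 carry 2, 12 carry 3 and 6 carry 4. They are spread over the chromosomes, 28 on chromosome I, 18 on II and 4 on III, with no 2 of them neighbours.

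RNA was sequenced from whole cells of 4 genotypes, with 3 libraries each. In the A, Q and R mutants the lysines at positions 5, 10 and 15 of histone H2B were replaced together, by alanine in A, by glutamine in Q and by arginine in R, and WT is the wild type. For A replicate 2 the third position is labelled 16, where the other A libraries have 15. Glutamine is commonly used in place of an acetylated lysine, arginine keeps the positive charge of an unmodified one, and alanine does neither. Strain background, how the alleles were made, growth medium and culture stage were not known. Nor was it stated whether the 3 libraries of a group are separate cultures, and p-values therefore reflect the spread between these libraries, which may be technical. A count per gene does not show an amino acid change, so the genotypes could not be checked from these values.

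The libraries held between 15329416 and 20050394 counts, and all 50 genes passed the filter on low counts, as did 5024 of all genes. Levels in CPM are counts scaled to a common library total. A limit of 3 counts was worth 0.15 to 0.196 CPM, and the lowest value of any of the 50 genes was 2.93 CPM. Together the 50 genes took between 0.62% and 0.667% of the counts in A, R replicates 1 and 3 and WT, between 0.6907% and 0.7238% in Q, and 0.765% in R replicate 2. On the first principal component of all genes, which held 44.5% of the variance, replicate 2 of Q (30.1) and of R (34.8) lay apart from the other libraries of their groups (8.1 and 11.1 in Q, 4.5 and 5.7 in R), and A replicate 2 lay at 4.8, against -10.1 and -9.9 for the other A libraries. The WT libraries lay between -28.8 and -22.9. Counts of calls over the 50 genes, and over lists of other genes, are given below also without replicate 2 of the mutant.

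Levels between genes were compared as FPKM, which is scaled for gene length. The 50 genes covered a wide range. Averaged over all 12 libraries, cdc48, the ubiquitin-selective ATPase that extracts proteins from complexes and membranes, stood highest at 531 FPKM, above 95.9% of all genes. vtc2, a subunit of the complex that makes polyphosphate at the vacuole, followed at 181 FPKM, and atg8 at 165 FPKM. At the low end were vps1302, 1 of 2 chorein genes among the 50, at 5.2 FPKM, gid4, a substrate receptor of the GID ubiquitin ligase, at 6.26 FPKM, and atg12 at 6.82 FPKM. The 2 ubiquitin-like modifiers of the pathway therefore sat at opposite ends: atg8 averaged 164 ± 14.7 FPKM in A, 193 ± 12.5 in Q, 182 ± 27.8 in R and 121 ± 4.81 in WT (SD, n = 3 each), and atg12 averaged 7.37 ± 1.21 in A, 5.61 ± 1.4 in Q, 5.84 ± 0.839 in R and 8.45 ± 1.03 in WT.

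**Figure D1:**
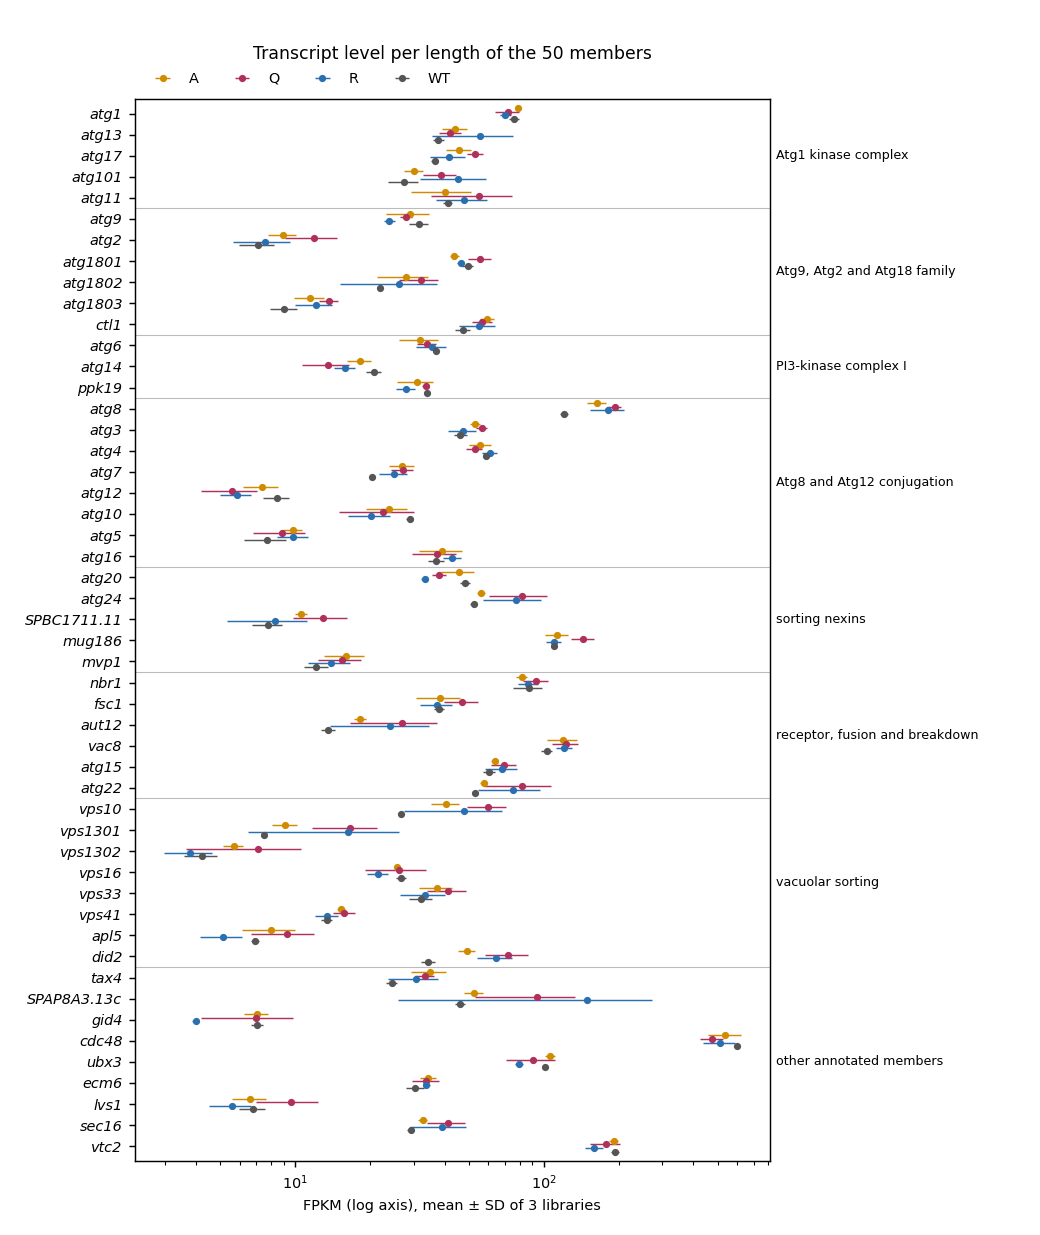
Deposited FPKM (log axis, scaled for gene length) of each of the 50 genes in A, Q, R and WT. Points are means and bars SDs of 3 libraries. cdc48 is the highest gene at a mean of 531 FPKM over the 12 libraries and vps1302 the lowest at 5.2 FPKM. The widest bar is that of SPAP8A3.13c in R (149 ± 123 FPKM).

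Changes were tested in each mutant against WT on the counts, in 1 edgeR quasi-likelihood fit over all 12 libraries. A call means an adjusted p (Benjamini-Hochberg, over all genes tested) under 0.05. Levels are given below as CPM after TMM scaling, and fold changes on the log2 scale with their SE. In bulk RNA a change in every cell and a change in the share of cells in some state cannot be told apart. The 3 comparisons share the WT libraries.

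In Q, 18 of the 50 genes were called, 36% of them, where 34.5% of all genes were. The total was thus near the background, but its direction was uneven: 16 rose and 2 fell in Q, where 18.6% of all genes rose and 15.8% fell. In R, 13 genes were called, 26% against 24.2% of all genes, with 12 that rose (13.2% of all genes) and 1 that fell (11.1%). On FPKM with limma the R count was 7, with 5 higher and 2 lower. In A only tax4 was called, where 4.16% of all genes were called, 2.73% higher and 1.43% lower. No gene fell in A. An unadjusted p below 0.05 was found there for 9 of the 50 genes, a smaller share than the 1231 of all 5024 genes tested. DESeq2 called 4 of the 50 in A.

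The median log2 change of the 50 genes was 0.18 in A, 0.28 in Q and 0.18 in R, against 0.01, 0.02 and -0.01 over all genes tested in A, Q and R. The fitted change was positive for 36 of the 50 in A and 35 of the 50 in Q and in R. In 22 genes all 3 A libraries lay above all 3 WT libraries, 44% of the 50 against 22.3% of all genes, and in 3 they lay below (19.9% of all genes). For Q these counts were 21 above (27.1% of all genes) and 6 below (26.4%), and for R 21 above (27%) and 10 below (28%).

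Across the 3 mutants, 29 genes were called in none. The 9 genes that rose in both Q and R were tax4, aut12, sec16, atg24, did2, vps10, vps1301, atg7 and atg8, and tax4 was also called in A. A further 7 rose in Q without a call in R (atg17, atg2, atg1803, mug186, SPBC1711.11, atg22 and vps1302), and 3 rose in R without a call in Q (atg13, atg101 and SPAP8A3.13c). atg20 fell in both Q and R, and atg14 fell in Q. None of these differences between mutants passed the test of the difference itself, as given below.

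**Figure D2:**
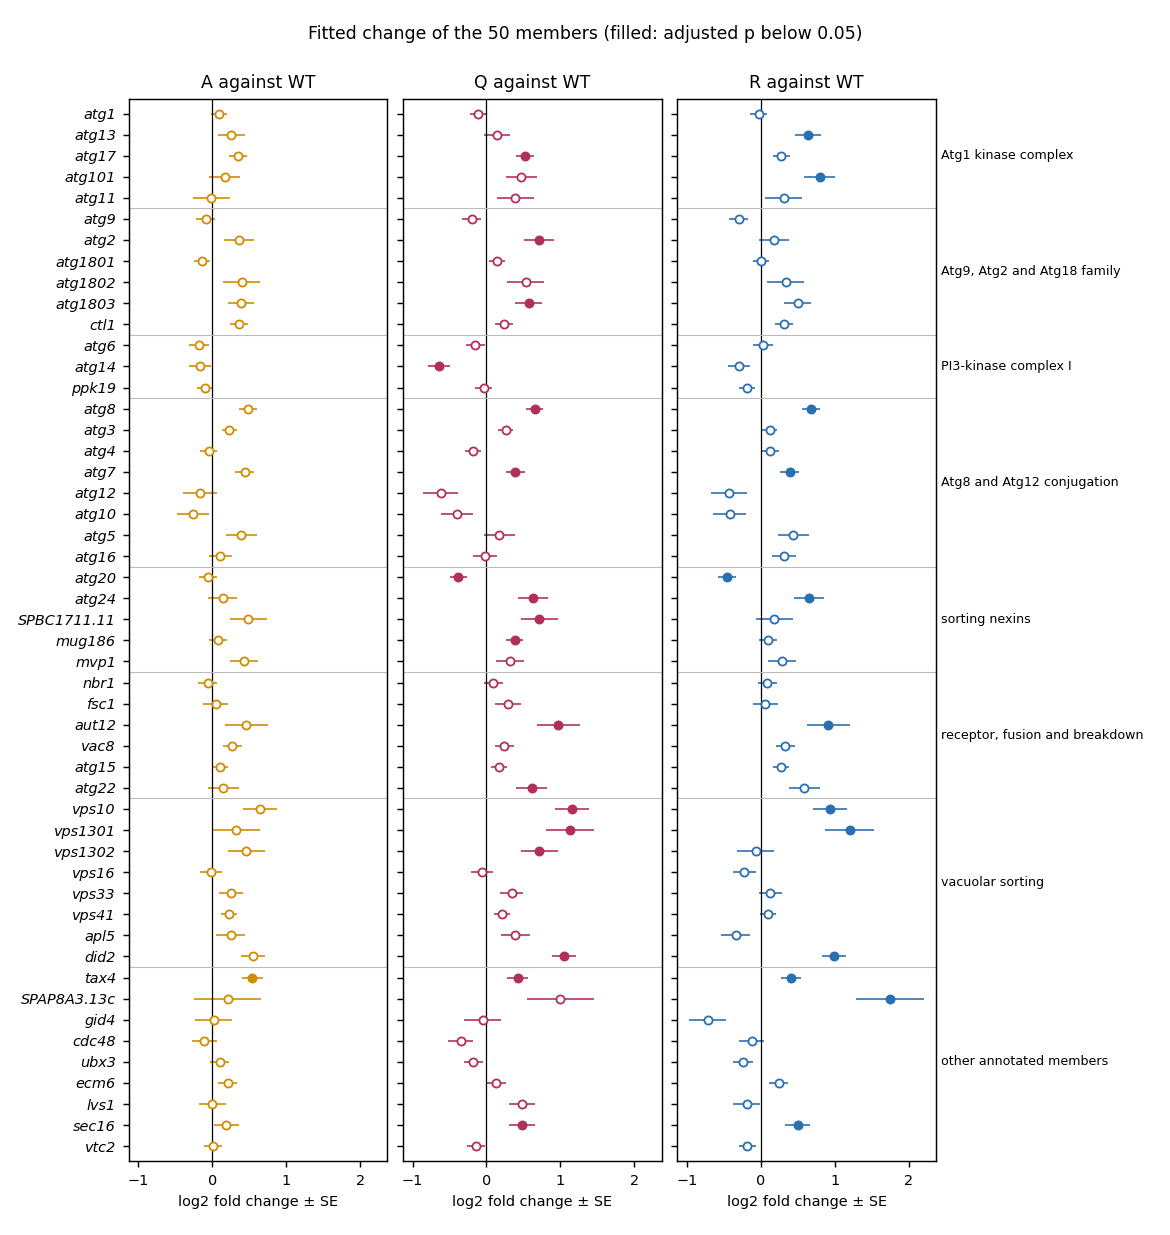
Fitted log2 fold change against WT of the 50 genes in A, Q and R, with bars of 1 SE, grouped by role. Filled points have an edgeR adjusted p below 0.05: 1 gene in A, 18 in Q and 13 in R. The filled points lie right of 0 except atg14 in Q and atg20 in Q and R.

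The Atg1 kinase complex had 5 members, Atg1 itself, its regulators Atg13, Atg17 and Atg101, and the scaffold Atg11. Of these, 1 rose in Q (atg17), 2 rose in R (atg13 and atg101) and none changed in A. atg17 had 121, 148 and 117 CPM in A, 147, 139 and 146 CPM in Q and 112, 139 and 114 CPM in R, against 102, 102 and 98.2 CPM in WT. Each mutant library lay above each WT library, and the 3 Q libraries were close together. The log2 change was 0.52 ± 0.12 in Q (SE, edgeR adjusted p = 0.00811), 0.35 ± 0.12 in A (adjusted p = 0.0935) and 0.28 ± 0.12 in R (adjusted p = 0.0959). The Q call held in all 21 alternatives tried, with adjusted p between 0.0176 and 0.0379 when any library of Q or WT was left out.

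atg13 had 144, 229 and 130 CPM in R, against 102, 107 and 114 in WT. R replicate 2 was far above the other R libraries, and all 3 lay above WT. The change was 0.64 ± 0.18 (edgeR adjusted p = 0.0292) and came to 0.34 without R replicate 2 (adjusted p = 0.101). atg101 was likewise highest in R replicate 2, with 20.9, 34.1 and 24.3 CPM in R against 14.1, 17.4 and 14.1 in WT. Its change was 0.80 ± 0.21 (adjusted p = 0.0192), and 0.57 without R replicate 2 (adjusted p = 0.0793). In Q, atg101 had 20.3, 25.4 and 17.4 CPM, which touched the WT range (0.47 ± 0.21, adjusted p = 0.0942). atg1, the kinase, had a mean of 223 ± 6.08 CPM in A, 195 ± 28.9 in Q and 207 ± 8.35 in R against 210 ± 11.5 in WT, with fitted changes between -0.11 and 0.09. atg11 varied most between libraries of 1 group, with 104, 199 and 219 CPM in Q against 137, 124 and 137 in WT (0.39 ± 0.25, adjusted p = 0.232).

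Atg9 is the transmembrane protein of the vesicles that seed the membrane, Atg2 transfers lipid into it, and the 3 Atg18 proteins bind phosphatidylinositol 3-phosphate. With ctl1, annotated as implicated in autophagy, these 6 genes had 2 rises in Q (atg2 and atg1803) and no call in A or R. atg2 had 46.2, 56.4 and 70.6 CPM in Q, against 41.9, 31.6 and 32.2 in WT. The groups did not overlap, although Q replicate 1 lay close to WT replicate 1. Its change was 0.71 ± 0.20 (edgeR adjusted p = 0.0174), and 0.52 without Q replicate 3 (adjusted p = 0.0644). In R it had 33, 50 and 37 CPM, overlapping WT (0.18 ± 0.20). atg1803 had 12.6, 17.6 and 16.3 CPM in A, 19.1, 17.2 and 16.5 CPM in Q and 14.7, 19.2 and 16.5 CPM in R, against 12.1, 13.1 and 10.4 CPM in WT. Q and R each lay wholly above WT, with changes of 0.57 ± 0.18 in Q (adjusted p = 0.0288) and 0.50 ± 0.18 in R (adjusted p = 0.0579). The Q call of atg1803 ended without Q replicate 1 (adjusted p = 0.0687) and without Q replicate 2 (adjusted p = 0.0545).

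The other 4 genes of this group did not pass the test. atg1802 had 57.2, 52.1 and 38.8 CPM in Q and 33.3, 62.4 and 34.4 in R, against 33.6, 34.5 and 34.5 in WT, so that 1 R library stood well above the rest. ctl1 had changes of 0.36 ± 0.12 in A (edgeR adjusted p = 0.0935), 0.24 ± 0.12 in Q and 0.31 ± 0.12 in R (adjusted p = 0.0771). atg1801 stayed between -0.14 and 0.14 in the 3 mutants. atg9 was the only one of the 6 with a negative value in all 3, -0.09, -0.20 and -0.30 in A, Q and R, each with an SE of 0.13.

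The phosphatidylinositol 3-kinase complex I of autophagy was represented by atg6, the beclin homologue, atg14, which directs the complex to autophagy, and ppk19, the protein kinase subunit named vps15 in the reference. atg14 was the largest fall among the 50 genes in Q. It had 29.6, 20.1 and 25.6 CPM in Q, against 37.8, 41.6 and 37.9 in WT, and the groups were clearly apart. The change was -0.64 ± 0.15 (edgeR adjusted p = 0.0102) and the call held in all 21 alternatives. In A it had 37.7, 32.5 and 34.9 CPM (-0.16 ± 0.15) and in R 35.8, 31.2 and 28.9 CPM (-0.29 ± 0.15, adjusted p = 0.17), in both cases below each WT library but not called. atg6 averaged 51.2 ± 8.13 CPM in A, 52.3 ± 3.57 in Q and 59.5 ± 6.1 in R against 58.1 ± 0.316 in WT. ppk19 averaged 166 ± 23.3 CPM in A, 173 ± 6.88 in Q and 156 ± 9.66 in R against 178 ± 6.87 in WT. The other subunits on the list of these kinase complexes, pik3, vps38 and SPBC660.08 (atg38 in the reference), are not among the 50 genes and none of them passed the test in any mutant.

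Atg8 is the ubiquitin-like protein attached to lipid on the autophagosomal membrane, and the protein is widely used to follow the pathway. atg8 had 143, 173 and 147 CPM in A, 175, 192 and 156 CPM in Q and 175, 199 and 156 CPM in R, against 106, 110 and 116 CPM in WT. The mutant libraries all lay above the WT libraries by a clear margin. It rose by 0.65 ± 0.12 in Q (edgeR adjusted p = 0.00504) and by 0.68 ± 0.12 in R (adjusted p = 0.00482), or 1.57-fold and 1.6-fold, and both calls held in all 21 alternatives. In A the change was 0.48 ± 0.12, or 1.39-fold, with an adjusted p of 0.0501, just outside the threshold. DESeq2 called it in A (adjusted p = 0.0137), as did the fit with the replicate block (adjusted p = 0.0221) and the fit without R replicate 2 (adjusted p = 0.0214). It was not called in A with limma, nor when any A or WT library was left out.

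atg7, the enzyme that activates both Atg8 and Atg12, had 53.2, 58 and 69.5 CPM in A, 63.2, 60.7 and 50.5 CPM in Q and 55.8, 64 and 54.3 CPM in R, against 44.1, 44.7 and 44.4 CPM in WT. The WT libraries were almost equal, and every mutant library lay above them. The change was 0.39 ± 0.13 in Q (edgeR adjusted p = 0.0376) and in R (adjusted p = 0.0491), and 0.44 ± 0.13 in A (adjusted p = 0.0729). These calls were close to the threshold: without Q replicate 1 or 2 the Q call ended (adjusted p = 0.103 and 0.0966), and without any R library the R call did (adjusted p between 0.0584 and 0.171), as it did without A replicate 1 (0.0526) or 2 (0.0532), with the replicate block (0.0521), with RLE size factors (0.051) and without the filter on low counts (0.0507).

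The rest of the conjugation machinery did not move as a block. atg12, the second modifier, had 4.48, 2.93 and 4.28 CPM in Q and 5.05, 3.56 and 4.75 in R, against 5.31, 6.66 and 6.04 in WT. Both mutants lay below WT, with changes of -0.62 ± 0.24 in Q (edgeR adjusted p = 0.0602) and -0.43 ± 0.24 in R (adjusted p = 0.192), and DESeq2 called the Q value (adjusted p = 0.0469). atg10, the enzyme that passes Atg12 to Atg5, had 18.4, 15.5 and 27.2 CPM in Q and 20, 15.8 and 24.3 in R, against 27.9, 26.1 and 26.5 in WT (-0.40 ± 0.22 and -0.42 ± 0.22). atg5, the target of Atg12, had 12.1, 14.2 and 11.6 CPM in R, against 8.01, 11.2 and 8.73 in WT (0.44 ± 0.21, adjusted p = 0.131). atg3, which transfers Atg8 to lipid, had changes of 0.23 ± 0.10 in A, 0.26 ± 0.10 in Q (adjusted p = 0.0671) and 0.12 ± 0.10 in R. atg4, the protease that releases Atg8, lay between -0.18 and 0.13, and atg16, the partner of the Atg12 and Atg5 conjugate, between -0.02 and 0.31. Over the 8 conjugation genes 2 rose in Q and in R, none in A, and the median change was 0.17, 0.08 and 0.22 for A, Q and R.

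Among the 5 sorting nexins, proteins that bind phosphoinositides and bend membranes, 3 rose and 1 fell in Q, and 1 rose and 1 fell in R. atg24, named as a partner of Atg20 from work in budding yeast, had 93.3, 95.5 and 103 CPM in A, 98.7, 179 and 132 CPM in Q and 119, 175 and 122 CPM in R, against 87.9, 90.7 and 86.7 CPM in WT. All mutant libraries lay above WT, with replicate 2 the highest of both Q and R. Its change was 0.63 ± 0.20 in Q (edgeR adjusted p = 0.0287) and 0.65 ± 0.20 in R (adjusted p = 0.0339). Without Q replicate 2 the Q value was 0.38 (adjusted p = 0.126), without Q replicate 3 its adjusted p was 0.0518, and without R replicate 2 the R value was 0.45 (adjusted p = 0.145).

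atg20 itself went the other way. It had 83.1, 85.2 and 71.6 CPM in Q and 76.9, 75.5 and 74.7 in R, against 100, 101 and 110 in WT, and 96.1, 86.4 and 117 in A, which overlapped WT. The 3 R libraries were nearly equal. The change was -0.38 ± 0.12 in Q (edgeR adjusted p = 0.0311) and -0.46 ± 0.12 in R (adjusted p = 0.0208). The Q call ended without Q replicate 3 (adjusted p = 0.0808) and the R call without R replicate 2 (adjusted p = 0.0573), where the value itself was unchanged at -0.46. mug186, described in the table as Snx41, had 293, 341 and 254 CPM in Q, against 221, 225 and 237 in WT (0.38 ± 0.12, adjusted p = 0.032), and ended without Q replicate 1 (adjusted p = 0.0524) or 2 (adjusted p = 0.125). SPBC1711.11, named atg2402 in the reference, had 29.1, 18.9 and 21.4 CPM in Q, against 13.2, 16.1 and 13 in WT (0.71 ± 0.25, adjusted p = 0.0423). Its R libraries spread widely, at 18, 20.1 and 9.94 CPM, and its Q call ended without Q replicate 1 (adjusted p = 0.141) or 3 (adjusted p = 0.0608), A replicate 1 (0.0554) or 3 (0.0552), or R replicate 1 (0.0504). mvp1 was not called, with changes of 0.43 ± 0.19 in A, 0.32 ± 0.19 in Q and 0.29 ± 0.19 in R.

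A further 6 genes were grouped under receptor, fusion and breakdown. They were the cargo receptor nbr1, the fusion factor fsc1, aut12, vac8 and, at the vacuole, the lipase atg15 and the amino acid exporter atg22. Of these 6 genes, 2 rose in Q, 1 rose in R, none fell and none was called in A. aut12 carries the older name of budding yeast MON1, whose product with Ccz1 activates the Rab7 GTPase at the vacuole. It had 30.8, 34.4 and 36.8 CPM in A, 36.3, 72.5 and 36.4 CPM in Q and 35.8, 66.8 and 36.3 CPM in R, against 24.3, 26.1 and 23.5 CPM in WT. Replicate 2 of Q and of R had about double the level of the other libraries of its group, which in turn lay above WT. The change was 0.97 ± 0.29 in Q (edgeR adjusted p = 0.0231) and 0.91 ± 0.29 in R (adjusted p = 0.0395). Without Q replicate 2 it was 0.56 in Q (adjusted p = 0.107), and without R replicate 2 it was 0.54 in R (adjusted p = 0.189). The R call also ended without A replicate 1 (adjusted p = 0.0516). When replicate 2 of A, Q and R was left out together, an alternative chosen after the data were seen, aut12 was called in each mutant.

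atg22 had 112, 222 and 158 CPM in Q and 131, 204 and 149 in R, against 104, 107 and 110 in WT. Q replicate 1 lay just above WT, and Q replicate 2 was at about double the WT level. The change was 0.61 ± 0.21 in Q (edgeR adjusted p = 0.0425) and 0.59 ± 0.21 in R (adjusted p = 0.0612). This was among the least stable calls: it held in 7 of 21 alternatives, and came to 0.33 without Q replicate 2 (adjusted p = 0.2) and had an adjusted p of 0.0728 without Q replicate 3. It also ended without R replicate 3 (adjusted p = 0.0521) and without any A library (0.051 to 0.0567). vac8, an armadillo-repeat protein of the vacuole membrane, had changes of 0.27 ± 0.13 in A, 0.24 ± 0.13 in Q and 0.33 ± 0.13 in R (adjusted p = 0.0743). atg15 lay between 0.11 and 0.27, fsc1 between 0.05 and 0.29 and nbr1 between -0.06 and 0.09. nbr1 thus had among the smallest differences, with 159, 157 and 154 CPM in A, 156, 205 and 158 CPM in Q and 193, 169 and 158 CPM in R, against 139, 171 and 179 CPM in WT.

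The 8 vacuolar sorting genes held the largest called rises in Q, with 4 of 8 called in Q and 3 in R, and a median change of 0.29 in A, 0.55 in Q and 0.12 in R. did2, an ESCRT-III subunit, had 48.1, 45.4 and 44.8 CPM in A, 49.9, 78.1 and 67.6 CPM in Q and 61.6, 71.3 and 55 CPM in R, against 29.5, 33.2 and 31.8 CPM in WT. Every mutant library lay above every WT library. It rose 2.07-fold in Q (1.05 ± 0.16, edgeR adjusted p = 0.00297) and 1.99-fold in R (0.99 ± 0.16, adjusted p = 0.00263), and was called there in all 21 alternatives. In A it was 1.46-fold (0.55 ± 0.16, adjusted p = 0.0674), and DESeq2 called it (adjusted p = 0.028). Limma did not call it in A, nor did any fit with an A or WT library left out.

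vps10, the receptor that carries carboxypeptidase Y to the vacuole, had 176, 219 and 170 CPM in A, 240, 338 and 228 CPM in Q and 178, 331 and 178 CPM in R, against 122, 121 and 118 CPM in WT. The WT libraries were nearly equal and all mutant libraries lay above them, with replicate 2 the highest in each mutant. The change was 0.65 ± 0.23 in A (edgeR adjusted p = 0.114), 1.16 ± 0.23 in Q (adjusted p = 0.0055) and 0.93 ± 0.23 in R (adjusted p = 0.017). The Q call held in all 21 alternatives. In R the value was 0.56 without R replicate 2 (adjusted p = 0.0528). Without replicate 2 of A, Q and R together the A value was 0.52 and was called (adjusted p = 0.00596).

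vps1301, which encodes a chorein of the Vps13 family of lipid transfer proteins, had 76.3, 103 and 91.3 CPM in A, 107, 209 and 156 CPM in Q and 106, 273 and 117 CPM in R, against 72.3, 70.7 and 72.8 CPM in WT. R replicate 2 was more than double the other R libraries. The change was 1.13 ± 0.33 in Q (edgeR adjusted p = 0.0206), or 0.87 without Q replicate 2 (adjusted p = 0.0834). In R it was 1.20 ± 0.33 (adjusted p = 0.0228), or 0.63 without R replicate 2 (adjusted p = 0.0871). Its paralogue vps1302 had 42.9, 47.8 and 93 CPM in Q and 31.4, 43 and 32.7 in R, against 43.8, 33 and 35.3 in WT. It was called in Q (0.71 ± 0.25, adjusted p = 0.0464) although the libraries overlapped, and without Q replicate 3 its change was 0.26 (adjusted p = 0.25). The call also ended without any A library (0.0548 to 0.0612), R replicate 1 (0.0538) or R replicate 3 (0.0566), and with the replicate block (0.0593). In R the fitted value of vps1302 was -0.07.

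The tethering subunits vps16 and vps33 of the HOPS and CORVET complexes, vps41 of HOPS, and the AP-3 adaptor subunit apl5 were called in no mutant. vps33 had a change of 0.34 ± 0.16 in Q (edgeR adjusted p = 0.116), vps41 lay between 0.10 and 0.23, and vps16 between -0.22 and -0.02. apl5 had 39.1, 27.5 and 28.5 CPM in A, 32.1, 28.3 and 44.9 CPM in Q and 19, 24.7 and 19.4 CPM in R, against 27.6, 26.6 and 25.9 CPM in WT. Its Q libraries lay above WT and its R libraries below, with changes of 0.39 ± 0.20 and -0.34 ± 0.20 in Q and R, neither called.

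**Figure D3:**
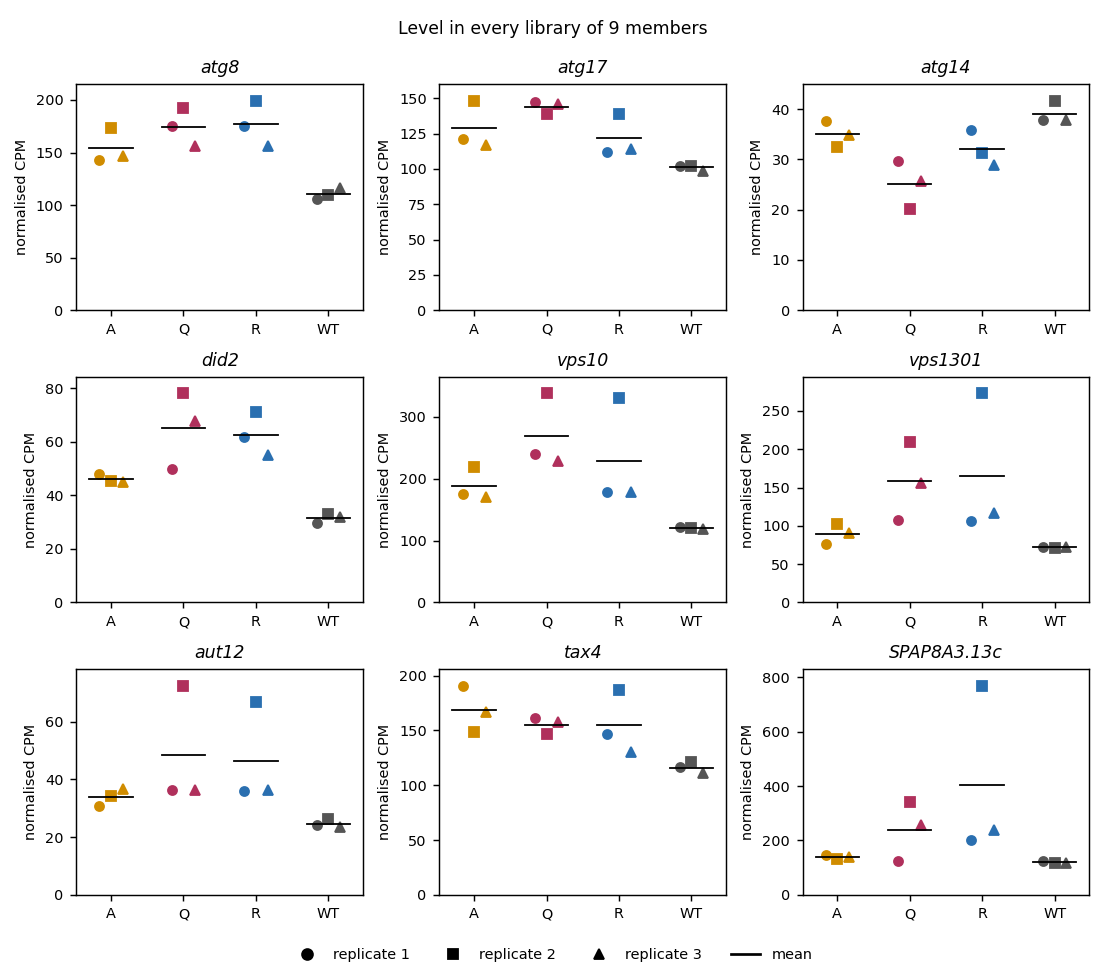
Normalised CPM of 9 genes in every library of A, Q, R and WT, with the replicate number as the symbol and a line at the group mean. The axes start at 0 and differ between panels. atg8 and did2 are above WT in every mutant library, atg14 is lowest in Q, and vps1301, aut12 and SPAP8A3.13c are carried upwards by replicate 2 of Q and R, SPAP8A3.13c to 770 CPM in R replicate 2.

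The other 9 annotated genes had 2 rises in Q, 3 in R and 1 in A. tax4, described in the table as a protein of autophagy and of the cytoplasm-to-vacuole targeting pathway and named irs4 in the reference, was the gene called in all 3 mutants. It had 191, 149 and 167 CPM in A, 161, 147 and 158 CPM in Q and 147, 187 and 130 CPM in R, against 117, 121 and 111 CPM in WT. All mutant libraries lay above WT, R replicate 3 by the least. The changes were 0.54 ± 0.14 in A (edgeR adjusted p = 0.0477), 0.42 ± 0.14 in Q (adjusted p = 0.0336) and 0.41 ± 0.14 in R (adjusted p = 0.0469). None of these calls was stable: leaving out any library of A or WT ended the A call (adjusted p between 0.0761 and 0.195), as did leaving out any Q library (0.0512 to 0.0576) or R replicate 1 (0.059). Leaving out any library of Q or WT ended the Q call (adjusted p between 0.0541 and 0.111). In R the call held without R replicate 3 and ended without R replicate 1 (adjusted p = 0.0619), R replicate 2 (adjusted p = 0.196), A replicate 3 (0.0591), Q replicate 1 (0.0516) or Q replicate 3 (0.0572).

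SPAP8A3.13c, a Vid24 family gene named gid10 in the reference, had the largest change among the 50 genes in R. It had 145, 131 and 140 CPM in A, 123, 341 and 255 CPM in Q and 200, 770 and 240 CPM in R, against 126, 116 and 117 CPM in WT. R lay wholly above WT with replicate 2 more than triple the other R libraries, and Q replicate 1 lay within the WT range. The change was 1.75 ± 0.46 in R, or 3.37-fold (edgeR adjusted p = 0.0198), and 0.87 without R replicate 2 (adjusted p = 0.08). In Q it was 1.00 ± 0.45 (adjusted p = 0.0999), and 1.32 without Q replicate 1 (adjusted p = 0.0393). Its relative gid4, another receptor of the same ligase, did not share this: it had 8.89, 7.56 and 8.53 CPM in A, 11, 5 and 7.77 CPM in Q and 4.99, 4.69 and 5.19 CPM in R, against 7.91, 7.86 and 8.8 CPM in WT. The R libraries were tightly grouped below WT, at -0.72 ± 0.25 (adjusted p = 0.0539), and DESeq2 called this fall (adjusted p = 0.0302).

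sec16, a scaffold of the sites where transport vesicles leave the endoplasmic reticulum, had 201, 214 and 228 CPM in A, 238, 327 and 219 CPM in Q and 241, 331 and 223 CPM in R, against 193, 187 and 183 CPM in WT. The Q and R values were alike library by library, with replicate 2 the highest. The changes were 0.48 ± 0.17 in Q (edgeR adjusted p = 0.0447) and 0.50 ± 0.17 in R (adjusted p = 0.0494). Without replicate 2 of the mutant they were 0.28 in Q (adjusted p = 0.193) and 0.30 in R (adjusted p = 0.215), and the Q call also ended without any A library (0.0515 to 0.0568) or R replicate 1 (0.052). The R call of sec16 likewise ended without any A library (0.0554 to 0.0633), Q replicate 1 (0.0517) or R replicate 1 (0.054), and with RLE size factors (0.0525). lvs1, a beige homologue, had 59.7, 71.2 and 96.6 CPM in Q, against 56.8, 46.2 and 59.8 in WT (0.48 ± 0.18, adjusted p = 0.0585). cdc48 had 1547, 1439 and 1226 CPM in Q, against 1805, 1702 and 1846 in WT, below WT in each library but not called (-0.35 ± 0.17, adjusted p = 0.123). Its cofactor ubx3 lay at 0.10 ± 0.13 in A, -0.18 ± 0.13 in Q and -0.24 ± 0.13 in R, vtc2 between -0.18 and 0.01, and ecm6, a subunit of the endoplasmic reticulum membrane complex, between 0.13 and 0.24.

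**Figure D4:**
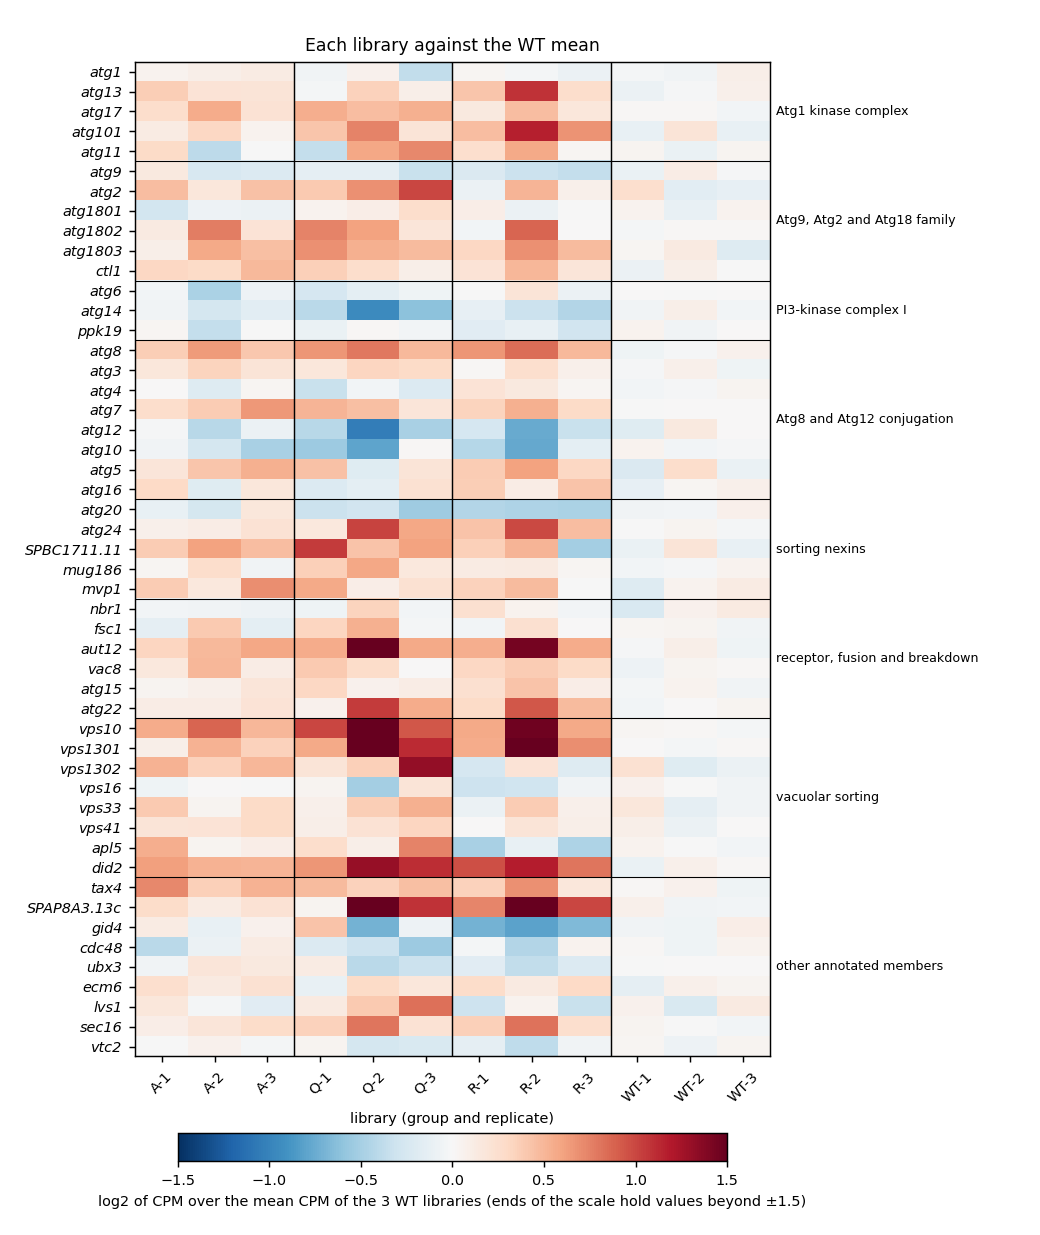
Level of each of the 50 genes in each library as the log2 of its CPM over the mean CPM of the 3 WT libraries (red above, blue below; the colour scale ends at 1.5 in either direction). The column of R replicate 2 is the reddest of R, and did2 and vps10 are red in all 9 mutant libraries.

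How the called genes were spread over libraries differed between Q and R. All 12 genes that rose in R were highest in R replicate 2, and 34 of the 50 genes were, where 42.5% of all genes had their highest R value there. Of the 16 genes that rose in Q, 9 were highest in Q replicate 2, 5 in Q replicate 1 and 2 in Q replicate 3. Among all 50 genes, 17, 21 and 12 were highest in Q replicates 1, 2 and 3. The shares of all genes there were 33.7%, 34.6% and 31.8%. The median over the 50 genes of the log2 ratio to the WT mean was 0.18 in R replicate 1, 0.32 in R replicate 2 and 0.06 in R replicate 3, and 0.16, 0.33 and 0.20 in Q replicates 1, 2 and 3. Over all genes these medians were between -0.02 and 0.01 in every library. Without R replicate 2, 2 of the 50 genes were called in R, atg8 and did2, and 22 in Q. Without Q replicate 2, 9 were called in Q and 15 in R. With replicate 2 of A, Q and R all left out the counts were 6 for A, 18 for Q and 12 for R, with 15 and 11 of the original calls of Q and R among them. For the alternatives, above and below, the share of all genes called is not given. A loss or gain of calls there can therefore not be read as particular to the 50 genes.

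Leaving out a WT library, which leaves 2 for the comparison, reduced the calls to between 5 and 6 in Q and between 2 and 4 in R, and left none in A. In Q the calls of atg17, atg14, did2, vps10 and atg8 remained in each case, and that of atg2 without WT replicate 1. In R those of did2 and atg8 remained in each case, and those of atg101 and vps10 without WT replicate 2. On log2(FPKM + 1), limma ended the calls of tax4, atg22, vps1302 and SPBC1711.11 in Q, those of tax4, aut12, sec16, atg13, atg24, vps1301 and atg7 in R, and that of tax4 in A. The edgeR fit of the 2 groups alone ended those of atg22 and vps1302 in Q and of tax4 and atg13 in R.

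**Figure D5:**
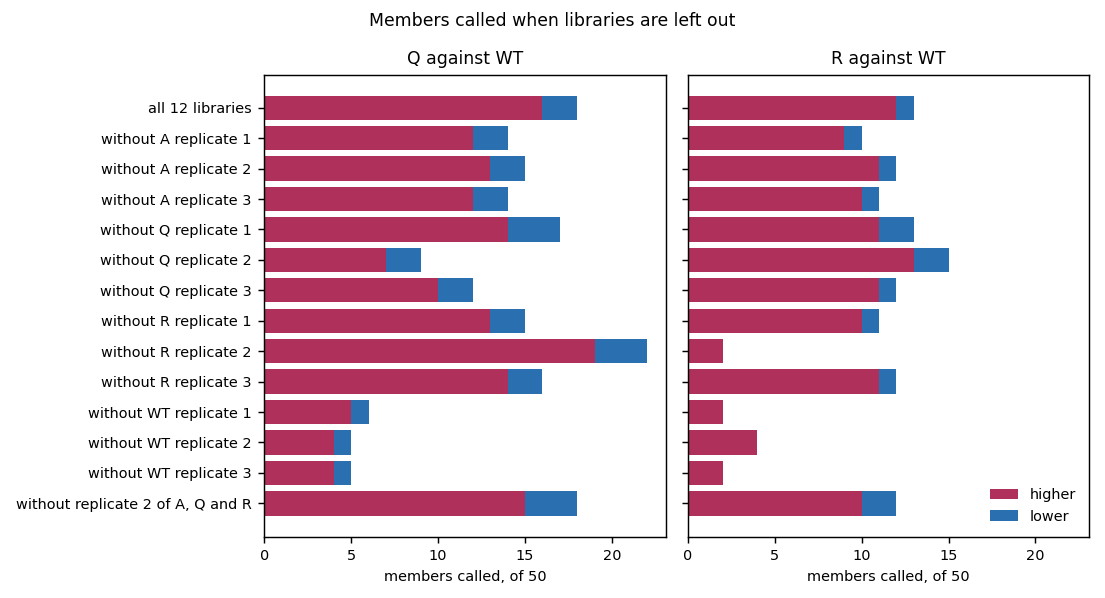
Number of the 50 genes called against WT in Q and in R, higher and lower, in the fit on all 12 libraries and with libraries left out. The count for R is 13 with all libraries and 2 without R replicate 2, and both counts drop when any WT library is left out, to between 5 and 6 for Q and between 2 and 4 for R. The share of all genes called with libraries left out is not shown.

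The difference between mutants was tested in the same fit, which held no replicate block. Of the 50 genes, 0 were called between Q and R, where 3.64% of all genes were, 0 between Q and A (0.0398%) and 0 between R and A (2.47%). At an unadjusted p below 0.05 there were 9, 10 and 9 of the 50 genes in these 3 comparisons. Of all 5024 genes tested there were 991, 926 and 1150. DESeq2 called 2, 0 and 3 of the 50. The closest between Q and R were apl5 (0.74 ± 0.20 for Q over R, edgeR adjusted p = 0.0663) and lvs1 (0.67 ± 0.18, adjusted p = 0.073), both called by DESeq2 (adjusted p = 0.0118 and 0.0197). Between R and A, SPAP8A3.13c differed by 1.54 ± 0.45 (adjusted p = 0.0842), atg20 by -0.40 ± 0.12 (adjusted p = 0.0903) and atg101 by 0.63 ± 0.21 (adjusted p = 0.111). With the replicate number as a block, for which the R and A libraries appeared paired, atg101 was the 1 gene called between R and A (0.61, adjusted p = 0.0358). Between Q and A, did2 differed by 0.50 ± 0.16 and atg14 by -0.48 ± 0.15, each with an adjusted p of 0.2. Without replicate 2 of A, Q and R, 8 genes were called between Q and R, 3 between Q and A and 2 between R and A. Without R replicate 2, 3 genes were called between Q and R (apl5, lvs1 and atg2). The library left out also decided single calls elsewhere: without Q replicate 2, apl5 and gid4 were called between Q and R, and gid4 between R and A. Without Q replicate 1, lvs1 was called between Q and R, and ubx3 and did2 between Q and A. Without A replicate 2, atg20 was called between R and A.

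Neighbouring genes can share reads, and how the counting treated strand was not known. In the reference annotation 49 of the 50 genes overlap some other gene. Many of the overlapping genes have no deposited counts, so whether they share reads could not be checked. did2, vps10 and vps1301 overlap only genes of that kind, all on the other strand. An overlap with a gene that has deposited counts was found for 23 of the 50 genes, 20 on the other strand and 3 on the same strand. Among the genes called in Q this applied to 7, and the overlapping gene was itself called in 2 cases, both times in the opposite direction: SPAC6F6.13c beside atg24 (-0.61, edgeR adjusted p = 0.0133) and mde4 beside atg7 (-0.66, adjusted p = 0.0134). Among those called in R it applied to 5, and mde4 was called again (-0.73, adjusted p = 0.0133). taf111, which overlaps atg22 on the same strand, changed by 0.23 in Q (adjusted p = 0.208), and rnf10, which overlaps atg8 on the other strand, by -0.14 in Q and 0.07 in R. No copy of any of the 50 genes at 95% identity over 50% of its length was found elsewhere in the reference genome.

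Genes of neighbouring steps outside the 50 were counted from lists of names. Their counts with all 12 libraries are read against the shares of all genes called in that fit: for A 2.73% rose and 1.43% fell, for Q 18.6% rose and 15.8% fell, for R 13.2% rose and 11.1% fell. A count for Q without Q replicate 2, or for R without R replicate 2, follows each one that changed. These shares do not apply to counts with a library left out, for which the share of all genes is not given. The endosomal GTPase ypt5 and the syntaxin pep12, which act in fusion on the way to the vacuole, rose in all 3 mutants. pep12 averaged 125 ± 11.1 CPM in A, 181 ± 47.6 in Q and 170 ± 81.1 in R, against 58.5 ± 6.29 in WT, with changes of 1.09 ± 0.28, 1.63 ± 0.28 and 1.54 ± 0.28 (edgeR adjusted p = 0.0477, 0.00391 and 0.0046). ypt5 averaged 169 ± 30.9 CPM in A, 212 ± 36.1 in Q and 242 ± 41.1 in R, against 104 ± 12.6 in WT. ypt7, the Rab7 GTPase of the vacuole, rose in Q (0.67 ± 0.13, adjusted p = 0.00532). Of the 14 tethering and fusion genes outside the 50, 2 rose in A, 8 rose and 1 fell in Q, and 4 rose in R, with medians of 0.29, 0.44 and 0.25. Without Q replicate 2, 5 rose and none fell in Q, and without R replicate 2, 2 rose in R. The A calls of pep12 and ypt5 rest on single libraries: without A replicate 2 the edgeR adjusted p in A was 0.143 for pep12 and 0.154 for ypt5, and without WT replicate 3 it was 0.195 for pep12 and 0.17 for ypt5. In Q and R both genes remained called with any 1 library left out.

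Of 16 ESCRT genes outside the 50, 1 rose in A, 7 rose and 1 fell in Q, and 3 rose in R. Without Q replicate 2, 2 rose and none fell in Q, without 1 of the WT libraries 2 or 3 rose in Q and none in R, and without R replicate 2 none was called in R. hse1, a subunit of the complex that gathers ubiquitinated cargo, averaged 162 ± 25.9 CPM in Q and 136 ± 38.3 in R, against 82 ± 4.29 in WT (0.98 ± 0.22 and 0.73 ± 0.22). SPCC162.06c, named vps60 in the reference, rose in all 3 mutants (0.64, 0.70 and 0.62 in A, Q and R), and vps36 fell in Q (-0.80 ± 0.26, edgeR adjusted p = 0.0315). Of 16 genes for the vacuolar proton pump, 1 rose in A, 7 rose and 1 fell in Q, and 4 rose in R. Without Q replicate 2, 5 rose and none fell in Q, and without R replicate 2, 2 rose in R. vma11, a subunit of the membrane ring, averaged 67.1 ± 8.97 CPM in A, 74 ± 11.3 in Q and 75.3 ± 19.7 in R, against 36.1 ± 2.66 in WT, and vma3 rose in Q and R (0.55 ± 0.14 and 0.69 ± 0.14). The retromer, which returns Vps10 to the Golgi, had 5 genes outside the 50, of which 2 rose (vps35 and vps17) and 1 fell (vps26) in Q, and none was called in A or R. The fall of vps26 was not called without Q replicate 2. In the AP-3, GGA and Golgi list of 10 genes outside the 50, 1 rose in A, 2 rose and 2 fell in Q, and 3 rose and 2 fell in R. Without Q replicate 2, 1 rose and 1 fell in Q, and without R replicate 2, 1 rose and none fell in R. There apm3, another AP-3 subunit, averaged 103 ± 23 CPM in Q and 136 ± 52.3 in R, against 253 ± 33.6 in WT (-1.29 ± 0.29 and -0.90 ± 0.29).

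Of the 6 genes on the list of vacuolar peptidases, 3 rose and 1 fell in Q, 1 rose and 1 fell in R, and none was called in A. Without Q replicate 2, 1 rose and none fell in Q. cpy1, carboxypeptidase Y, averaged 8721 ± 1545 CPM in Q and 9130 ± 372 in R, against 5743 ± 208 in WT (0.60 ± 0.16 and 0.67 ± 0.16, edgeR adjusted p = 0.014 and 0.0134). psp3, a serine protease, rose in Q (0.63 ± 0.15), and SPBC1711.12, named ppp16 in the reference, fell in Q and R (-0.38 ± 0.12 and -0.56 ± 0.12). Upstream, TORC1 restrains autophagy when nutrients are plentiful. The list of 31 genes holds TORC1, TORC2 and their regulators, inhibitors of TORC1 included, so a rise has no single meaning for autophagy. Of these genes none was called in A, 6 rose and 2 fell in Q, and 1 rose in R, so the share that rose in Q was near that of all genes. Without Q replicate 2, 3 rose and 2 fell in Q, without 1 of the WT libraries 1 or 2 rose in Q, and without R replicate 2 none was called in R. tor2, the kinase of TORC1, averaged 182 ± 14.1 CPM in Q, against 121 ± 2.56 in WT (0.58 ± 0.13), and npr2, a subunit of a complex that inhibits TORC1, averaged 42 ± 11.6 CPM in Q, against 23.5 ± 2.24 in WT (0.84 ± 0.24). Of 4 genes of the AMP-activated kinase and its activator, 2 rose in Q (amk2 and ssp2) and none was called in A or R. Neither was called in Q without Q replicate 2 or without any 1 of the WT libraries. On a list of selective autophagy genes, not all of them receptors, 3 genes lie outside the 50. Of these, SPAC26A3.14c, named atg44 in the reference, rose in Q (0.37 ± 0.13, edgeR adjusted p = 0.0455). SPAC14C4.01c, named atg43, fell in R (-0.28 ± 0.09, edgeR adjusted p = 0.0413). The rise of SPAC26A3.14c was not called without Q replicate 2, nor the fall of SPAC14C4.01c without R replicate 2. hfl1, a further autophagy gene outside the 50, was called in no mutant (0.07, 0.19 and 0.24 in A, Q and R). The cpy1 calls ended in Q without Q replicate 2 (edgeR adjusted p = 0.0503) or WT replicate 1 (0.0562), and in R without WT replicate 1 (0.0642) or 3 (0.0518).

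Markers of sexual differentiation and nitrogen starvation, 16 genes, did not move in 1 direction. In A 3 rose, in Q 6 rose and 6 fell, and in R 6 rose and 3 fell, with medians of -0.16, 0.09 and 0.18. Without Q replicate 2, 6 rose and 4 fell in Q, and without R replicate 2, 5 rose and 2 fell in R. ste4, an adaptor of the pheromone MAP kinase cascade, averaged 32.6 ± 3.41 CPM in A, 44.3 ± 4.94 in Q and 37.1 ± 7.43 in R, against 9.09 ± 1.03 in WT. Its change in A, 1.84 ± 0.18 (edgeR adjusted p = 0.000927), was called with any 1 library left out. ste11, the transcription factor that starts mating, averaged 95.4 ± 24.9 CPM in A, 154 ± 74.1 in Q and 238 ± 38.9 in R, against 28.4 ± 4.94 in WT (1.75 ± 0.33, 2.44 ± 0.34 and 3.07 ± 0.35, edgeR adjusted p = 0.0197, 0.00222 and 0.000355). mei2, the switch to meiosis, averaged 15.8 ± 6.99 CPM in A, 43.1 ± 17.1 in Q and 32.1 ± 17.4 in R, against 3.07 ± 0.856 in WT, the lowest WT mean of the 16. isp5, an amino acid permease induced on starvation, averaged 310 ± 309 CPM in Q and 101 ± 28.4 in R, against 26 ± 11.3 in WT, while the permease cat1 fell in Q (175 ± 36.1 CPM, against 321 ± 1.89 in WT). Summed over the 16 genes, A libraries ranged over 861 to 1172 CPM, Q libraries over 996 to 1703 CPM and R libraries over 1422 to 1449 CPM, against 958 to 1107 CPM for WT libraries. The 3 R libraries were close together in this sum, in which the most abundant markers weigh most. Single markers could spread more, as mei2 did in R (32.1 ± 17.4 CPM). The part of these markers in the changes of the 50 genes was not tested. Over all 125 genes on the lists outside the 50, these markers included, 8 rose and none fell in A, 44 rose and 15 fell in Q, and 22 rose and 7 fell in R. Of all genes, 2.73% rose and 1.43% fell in A; for Q the shares were 18.6% higher with 15.8% lower, for R 13.2% higher with 11.1% lower. These counts depend on single libraries. Without A replicate 2, 1 rose in A (ste4), and without A replicate 3, 2 rose. Without Q replicate 2, 25 rose and 7 fell in Q, and without R replicate 2, 11 rose and 3 fell in R. Leaving out 1 WT library left 1 gene higher in A, 22 to 26 higher and 4 to 10 lower in Q, and 10 to 12 higher and 1 to 3 lower in R. The A calls of ste11, mei2, vma11, SPCC162.06c and gga21, an adaptor at the Golgi, each ended without A replicate 2 or without any 1 of the WT libraries, while the R calls of ste11, mei2 and vma11 did not end with any 1 library left out. That of SPCC162.06c ended without R replicate 2 (edgeR adjusted p = 0.06) or any 1 WT library (0.0541 to 0.0608).

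In the authors' deposited tables, 10 of the 50 genes had an FDR below 0.05 in A, all 10 higher, where 24.5% of all genes had one. For Q the authors' deposited table had 21 of the 50 genes, 18 higher and 3 lower, where 40.3% of all genes had one. For R the authors' deposited table had 19, 15 higher and 4 lower, where 37.8% of all genes had one. Those that also changed at least 2-fold in the authors' deposited tables were SPAP8A3.13c, did2, vps10 and vps1301 in Q, SPAP8A3.13c and vps1301 in R, and none in A.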

How the data were processed

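RNA-seq of whole cells was analysed in 12 libraries, 3 each of A, Q, R and WT, grouped by title and genotype labels. Per the labels' protocols, total RNA was extracted with Trizol, enriched with oligo(dT), reverse transcribed, and amplified before sequencing. Tools in the submitters' processing notes are RSEM, StringTie, HISAT2, Bowtie2, fastp and DESeq2, with no roles or versions. Genome build, annotation and strandedness: not given in the sources used here. Per the file headers, the authors deposited whole-number counts and FPKM per gene and library. Their tables also hold, per the file headers, a mean FPKM per group, a log2 ratio, a p-value and an FDR per gene from the authors' own comparison. The WT columns were identical in the 3 tables.

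The 50 genes and the gene lists were chosen with earlier results of these data known. The count test was edgeR 4.0.16 (R 4.3.3), 1 quasi-likelihood fit of 12 libraries with group as the term. filterByExpr kept 5024 genes and left out 136, scaling was by TMM, and p-values are two-sided and Benjamini-Hochberg adjusted over all genes tested. SEs are approximate, being the log2 fold change over the root of F. Reads carry no molecular identifiers, so the limit of 3 counts covers counting error only. The fit was tested on simulated data with known changes and the same dispersion for every gene and group. The simulation held no outlying library, so it does not cover that case. Genes were named by a rule: up to 8 per direction called in each mutant at 5 CPM or more in the higher group, all core autophagy genes, those called in all 3 mutants, up to 4 per direction between mutants, and the 3 highest and 3 lowest by FPKM. Genes outside the 50 were taken as up to 3 per list and mutant with the lowest p. Others named were chosen after their values were seen.

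Alternatives were DESeq2 1.42.0, RLE size factors, no low-count filter, a fit of the 2 groups alone, limma 3.58.1 on log2(FPKM + 1) and log2(FPKM + 0.1) for genes at 1 FPKM in 3 libraries or without that filter, a replicate block, and each of the 12 libraries left out. Leaving out replicate 2 of A, Q and R together was added after the data were seen. To see whether replicate numbers pair the libraries, deviations from group means were correlated. The values were 0.321, 0.397 and 0.29 for Q and R and 0.18, 0.317 and 0.195 for R and A, all above 0.1, so equal numbers may be pairs there. For the other pairs of groups at least 1 value was below 0.1. The main fit held no replicate block for any comparison, Q against R and R against A included. The block was used only as an alternative, fitted over all 12 libraries. The labels say nothing of shared batches. No 2 replicates of a group were copies: chi-square per degree of freedom for their counts was 15.8 or more. The reference (ASM294v3) was used only for names, neighbouring genes and, with BLAST 2.17.0, copies.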

Additional observations from a re-analysis of the deposited data

How the results depend on the processing

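The direction and the side of the threshold of each of the 117 tests against WT of the named genes were followed through the alternatives: of 2457 values 2235 kept both, 163 lost a call, 59 gained one, and none of the called values changed sign. Most of the 117 tests were not called with all libraries, so most values that kept both were tests that stayed uncalled. The calls themselves were less stable: of 21 alternatives, that of atg7 in R held in 6 and that of tax4 in A in 8. The calls of sec16 and mug186 are not among the 117 tests. For A, 1 gene was called with all libraries, 4 with the replicate block, 4 with DESeq2, 9 in the fit of the 2 groups alone, 0 with limma under each of its 3 settings, and 6 without replicate 2 of A, Q and R. Leaving out each library in turn gave between 0 and 7 for A, between 5 and 22 for Q against 18, and between 2 and 15 for R against 13. For Q every other alternative stayed between 13 and 20. For R limma gave 7, 8 and 7, and the others between 11 and 16. On FPKM the median of all genes in R was -0.10 with a pseudocount of 1 and 0.1, so changes in R are lower there by about that amount, and the median of the 50 genes was 0.06. With the replicate block the counts were 20 for Q, 15 for R and 0 between Q and R; for R and A it was 1. Except for the counts of A and of R against A, the block changed no count by more than 1.5 times. Between Q and R, DESeq2 called 2 and leaving replicate 2 out of all 3 mutants gave 8, and leaving out each library gave between 0 and 3. Between Q and A these were 0, 3 and between 0 and 2. Between R and A they were 3, 2 and between 0 and 1. The causes of these changes were not tested. Leaving a library out also lowers the number of libraries in the fit. The limit of 3 counts lay below every value of the 50 genes, so precision was set by the spread between 3 libraries a group.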
